A study of Homo sapiens with 4 samples.

Results

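Processed pseudogenes of ribosomal protein genes were compared between OVCAR8 ovarian cancer cells with hairpins against FAM49B and cells with a scrambled hairpin. The deposited expression table named 1021 processed pseudogenes after a ribosomal protein gene of the RPL or RPS series, among 58735 genes. Members were the 73 of these with a mean of at least 1 FPKM (the reads of a gene divided by its length and by a measure of library depth) over the 4 libraries, so their level is what chose them and is given as a description. Their parent is taken to be the gene whose name precedes the final P and number, which gave 41 parent genes for the 73 pseudogenes. Of the 1021 candidates, 381 had a read in any library and 124 had a read in every library.

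RNA-seq was made from 4 libraries of the established human cell line OVCAR8, which comes from an ovarian cancer. The group shFAM49B (2 libraries) received lentiviral GIPZ short hairpin plasmids against FAM49B, and the group shCON (2 libraries) received a scrambled hairpin and carries the genotype label WT. The protocol in the labels describes transient lipofection with harvest after 36 h, whereas the design text calls the knockdown stable, and neither text gives the number of hairpins or of clones. The study's design asks what changes in gene expression when FAM49B, which restrains signalling by the GTPase RAC1, is knocked down.

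A processed pseudogene is a copy of a messenger RNA that was reverse transcribed and inserted elsewhere in the genome, so it has no introns and usually no promoter of its own. Ribosomal protein genes left more such copies in the human genome than most gene families did, and their messenger RNAs are short and abundant. Young copies differ from the parent's messenger RNA at few bases, and a short read from the parent can then align equally well to the pseudogene. How reads with several possible positions were assigned before deposit is not stated in the labels, so every level below is uncertain in its split between pseudogene and parent.

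The first sequences show how alike the most abundant members and their parents are. They are taken from the transcripts of GENCODE release 29 on GRCh38 and run 5′ to 3′ along the coding part, with capitals at the bases that differ between pseudogene and parent. RPS28P7 lies on chr11:82689559-82689768 (plus strand) and RPL39P3 on chr6:73373108-73373263 (minus strand), and neither differs from its parent's coding sequence at any of the first 100 bases.
RPS28P7: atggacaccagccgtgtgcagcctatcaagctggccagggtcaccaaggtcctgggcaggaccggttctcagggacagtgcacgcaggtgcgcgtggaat
RPL39P3: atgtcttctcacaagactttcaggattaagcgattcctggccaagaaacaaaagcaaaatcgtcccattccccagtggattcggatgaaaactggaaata
RPS2P5, the member of the highest level, lies on chr12:118246084-118246962 (plus strand), and its first 100 bases differ from those of RPS2 at 2 positions.
RPS2P5: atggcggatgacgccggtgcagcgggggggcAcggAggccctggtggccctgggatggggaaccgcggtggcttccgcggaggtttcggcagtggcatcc
RPS2: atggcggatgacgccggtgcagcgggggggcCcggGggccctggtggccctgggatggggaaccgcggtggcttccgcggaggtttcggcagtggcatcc

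A further pair of sequences belongs to the pseudogene with the largest fall and its parent. RPL12P14 lies on chr1:15792796-15793285 (plus strand), overlaps no other gene of the table, and differs from RPL12 at 7 of the 63 bases shown, which are coding bases 8 to 70 of RPL12.
RPL12P14: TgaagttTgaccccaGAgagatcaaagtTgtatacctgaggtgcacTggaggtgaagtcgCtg
RPL12: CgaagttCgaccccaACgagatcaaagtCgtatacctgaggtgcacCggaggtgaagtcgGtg

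The libraries held 16288871 and 16290200 reads in shFAM49B and 15639559 and 16875353 reads in shCON, recovered from the deposited values. A single read over 1 kb of gene length was worth 0.0652 and 0.0668 FPKM in the shFAM49B libraries and 0.0593 and 0.0541 FPKM in the shCON libraries. FAM49B stood at 1.06 and 1.02 FPKM in shFAM49B, against 7.41 and 7.60 FPKM in shCON (adjusted p = 0.00054, limma). The epithelial keratins KRT8 and KRT18 stood between 23.2 and 41.7 FPKM in all 4 libraries, the Müllerian factor PAX8 at 0.0264 and 0.0271 FPKM in shFAM49B and at 0.112 and 0.0804 FPKM in shCON, and the leukocyte gene PTPRC at 0.00711 FPKM or 0. EPCAM differed in level, at 0.129 and 0.345 FPKM in shFAM49B and 2.94 and 2.96 FPKM in shCON. The mitochondrial ribosomal RNAs took 1.09% and 1.07% of reads in shFAM49B and 0.447% and 0.376% in shCON.

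Together the 73 pseudogenes took 0.332% and 0.328% of reads in the shFAM49B libraries, against 0.202% and 0.208% in the shCON libraries. Their summed level was 6519 ± 30.4 FPKM in shFAM49B and 3585 ± 57.0 FPKM in shCON (SD, n = 2 each), a ratio of 1.82. Both shFAM49B libraries lay above both shCON libraries, and the exact 2-sided permutation test gave p = 0.333, the smallest that 2 libraries against 2 can give. In bulk RNA, a change in each cell and a change in a share of the cells cannot be told apart. Without RPS2P5 the ratio of the sums was 1.71. The 79 ribosomal protein genes had a ratio of 1.76 between summed levels of 31284 FPKM in shFAM49B and 17806 FPKM in shCON. All other processed pseudogenes together had a ratio of 1.29. The share of reads in mitochondrial ribosomal RNA moved with the same groups, and its part in these ratios was not tested.

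The rise was shared by most members that were abundant, and fewer members of low level passed the test. In a limma fit across the 13775 genes that reach the same mean level, 41 of the 73 pseudogenes were higher in shFAM49B, where 26.4% of all tested genes were called higher. A further 4 were lower, where 15.8% of all tested genes were called lower, and 28 did not pass the test. In all, 42.2% of tested genes were called in either direction. The median log2 fold change (on the log2(FPKM + 1) scale, as every log2 fold change here) was 0.51 over the pseudogenes and 0.05 over all tested genes. With the values rescaled to TPM, 27 pseudogenes were higher and 4 lower, while the whole table moved by -0.24 on the log2 scale and held 1597 genes called higher and 4362 lower, beside 3642 higher and 2170 lower as deposited. Relative to recovered reads, 28 pseudogenes were higher and 5 lower, with the table moved by -0.19 and at 1722 genes higher and 4173 lower. The pseudogenes' median stood above the table's own median by 0.45 as deposited, by 0.57 in TPM and by 0.47 relative to recovered reads.

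Both shFAM49B libraries lay above both shCON libraries for 49 pseudogenes, where this held for 43.1% of all tested genes. The reverse order held for 5 pseudogenes, where it held for 31.6% of all tested genes. Among the 31 pseudogenes with a mean of 10 FPKM or more, 28 were higher (90.3%), 1 was lower (3.23%) and 2 did not pass the test. Among the 42 under 10 FPKM, 13 were higher (31.0%), 3 were lower (7.14%) and 26 did not pass. Counted by reads, 36 of the 47 pseudogenes with at least 100 reads over the 4 libraries were higher (76.6%) and 3 lower (6.38%). The 26 with fewer reads held 5 higher (19.2%) and 1 lower (3.85%). Over all tested genes, 26.4% were called higher and 15.8% lower. A mean of at least 1 FPKM was reached in both groups by 61 members, in shFAM49B alone by 9 and in shCON alone by 3, and these 12 had to differ between the groups to some degree. Of the 9, 4 were called higher (RPL5P30, RPS19P3, RPS29P16 and RPL23AP97), and of the 3, 2 were called lower (RPL12P14 and RPL39P36). The 61 that reached it in both groups held 37 called higher, 2 called lower and 22 not past the test.

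**Figure D1:**
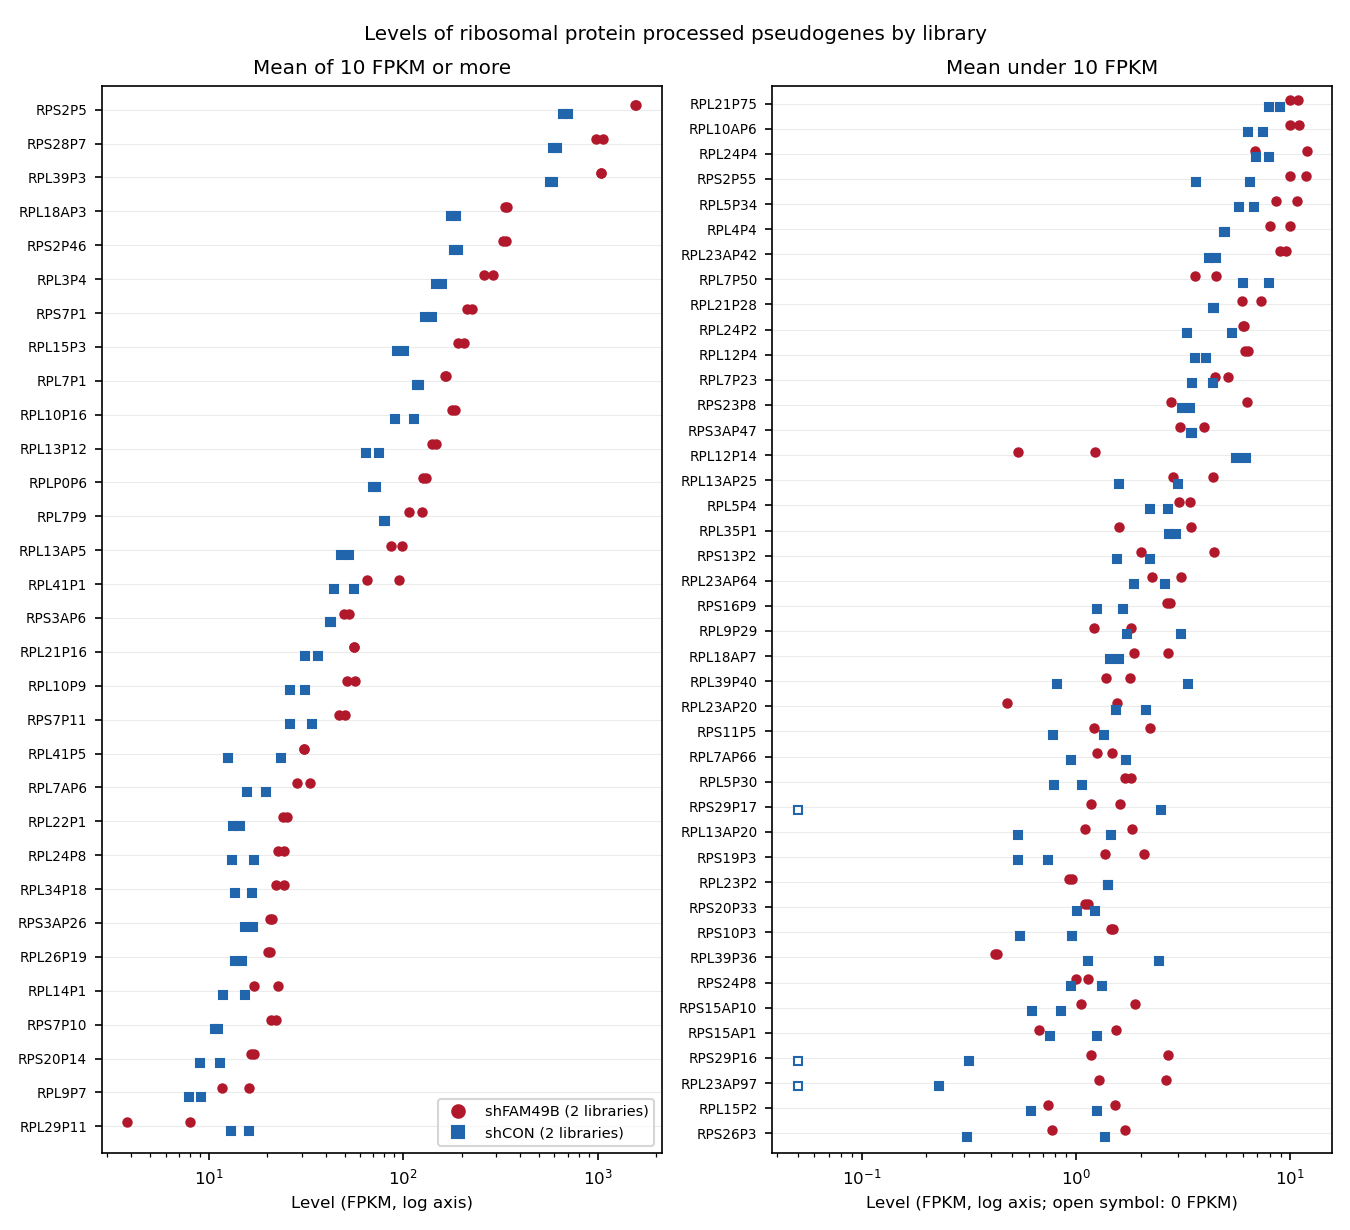
Level in FPKM (log axis) of each of the 73 pseudogenes in the 2 shFAM49B libraries (circles) and the 2 shCON libraries (squares), ordered by mean level, with open symbols for a level of 0. Among the 31 pseudogenes at 10 FPKM or more, RPL29P11 is the 1 with both shFAM49B libraries below both shCON libraries, while groups overlap for 19 of the 42 under 10 FPKM.

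Just inside the threshold of 1 FPKM stood RPS26P3, with 1.69 and 0.768 FPKM in shFAM49B and 1.36 and 0.311 FPKM in shCON, and RPL15P2, with 0.742 and 1.52 FPKM in shFAM49B and 1.25 and 0.616 FPKM in shCON. Just outside it stood RPL23AP2, with 1.54 and 1.15 FPKM in shFAM49B and 1.02 and 0.232 FPKM in shCON. The next below was RPL39P38, with 2.56 and 1.31 FPKM in shFAM49B and 0 in both shCON libraries. These neighbours of the threshold rest on few reads. The groups overlapped for RPS26P3 and RPL15P2 and did not overlap for RPL23AP2 and RPL39P38, though the shCON libraries of RPL23AP2 lay far apart.

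The parent genes rose without exception in the deposited scaling. All 41 were higher in shFAM49B, with a median log2 fold change of 0.77 and a median ratio of 1.71, and of all 79 ribosomal protein genes 78 were higher. RPL36A did not pass the test, with 3.50 and 4.13 FPKM in shFAM49B and 3.39 and 3.42 FPKM in shCON (log2 fold change 0.12, adjusted p = 0.332, limma). The number of parents called higher was 38 in TPM, 39 relative to recovered reads and 28 after quantile normalization, which pulls the highest genes of each library to a common level. Of the 8 ribosomal protein paralogs, which are separate protein-coding genes, 6 were tested, 2 were higher and 4 did not pass the test. Among the other processed pseudogenes 392 of 9170 were tested. Of these, 98 were higher (25%) and 34 lower (8.67%), with a median log2 fold change of 0.17. Ribosomal protein pseudogenes of other biotypes gave 12 tested genes of 54. There 3 were higher (25%) and 1 was lower (8.33%), with a median log2 fold change of 0.08. The shares over all tested genes were 26.4% higher and 15.8% lower.

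Members copied from genes of the small ribosomal subunit, which decodes the messenger RNA, numbered 24, of which 13 were higher and 0 lower, with 11 not past the test. RPS2P5, a copy of the gene for RPS2 near the mRNA entry of the small subunit, had 1565 and 1580 FPKM in shFAM49B, against 707 and 667 FPKM in shCON. The ratio was 2.29 (log2 fold change 1.19, SE 0.07, adjusted p = 0.0011, limma), and the libraries of the groups were far apart. The parent RPS2 had 2104 and 2278 FPKM in shFAM49B, against 1103 and 1203 FPKM in shCON, a ratio of 1.90. For every 100 reads of RPS2 there were 27.1 and 25.3 reads of RPS2P5 in the shFAM49B libraries and 23.3 and 20.2 in the shCON libraries, so both shFAM49B libraries held more of the pseudogene relative to its parent. A second copy, RPS2P46 (chr17:19445970-19446852), had 326 and 338 FPKM in shFAM49B and 183 and 191 FPKM in shCON, a ratio of 1.78. It took 5.67 and 5.43 reads per 100 of RPS2 in shFAM49B and 6.06 and 5.80 in shCON, the opposite order to RPS2P5. The third copy, RPS2P55 (chrX:40934982-40935864), had 11.8 and 9.99 FPKM in shFAM49B and 6.51 and 3.61 FPKM in shCON, and its call (adjusted p = 0.022, limma) was lost without either shFAM49B library, at adjusted p = 0.106 and 0.078.

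RPS28P7, a copy of the gene for RPS28 in the head of the small subunit, had 1062 and 983 FPKM in shFAM49B, against 589 and 616 FPKM in shCON (ratio 1.70, log2 fold change 0.76, SE 0.07, adjusted p = 0.0023, limma). Under quantile normalization its log2 fold change was 0.17 and the call was lost (adjusted p = 0.327, limma). The mean level of RPS28P7 over the 4 libraries was 6.66 times that of RPS28, whose FPKM is divided by the length of all annotated exons while the pseudogene's is divided by 210 bases. In reads there were 74.8 and 61.0 of RPS28P7 per 100 of RPS28 in shFAM49B and 69.8 and 59.0 in shCON, so the groups overlapped on that measure. RPS7P1, a copy of RPS7, had 226 and 214 FPKM in shFAM49B and 130 and 141 FPKM in shCON, and its ratio of 1.62 stood beside 1.62 for RPS7. The other RPS7 copies were RPS7P11, with a ratio of 1.61, and RPS7P10, with 20.8 and 22.2 FPKM in shFAM49B and 10.7 and 11.1 FPKM in shCON, a ratio of 1.97. All 3 copies of RPS7 were called higher.

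The 3 copies of RPS3A moved little, as did their parent. RPS3A itself had a ratio of 1.26 (log2 fold change 0.33, adjusted p = 0.014, limma), the lowest of the 10 parents with at least 3 members. Its copies RPS3AP6, RPS3AP26 and RPS3AP47 had ratios of 1.20, 1.30 and 1.01. RPS3AP6 had 49.8 and 52.4 FPKM in shFAM49B and 42.7 and 42.1 FPKM in shCON, and passed the test at a log2 fold change of 0.26 (adjusted p = 0.017, limma). RPS3AP47, with 3.05 and 3.97 FPKM in shFAM49B and 3.44 and 3.48 FPKM in shCON, did not pass.

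Members copied from genes of the large subunit, which forms the peptide bond, numbered 49, of which 28 were higher, 4 lower and 17 not past the test. RPL39P3, a copy of the gene for RPL39 at the peptide exit tunnel, had 1040 and 1035 FPKM in shFAM49B, against 569 and 588 FPKM in shCON. Its ratio of 1.79 (log2 fold change 0.84, SE 0.06, adjusted p = 0.0017, limma) was below that of RPL39 at 1.94. Every library of shFAM49B held fewer RPL39P3 reads per 100 of RPL39, at 19.6 and 19.1, than the shCON libraries, at 21.2 and 20.8. RPL18AP3 (chr12:104265309-104265836) had 336 and 344 FPKM in shFAM49B and 175 and 188 FPKM in shCON, a ratio of 1.87. RPL3P4 (chr14:98972879-98973301), a partial copy of RPL3, whose protein lies close to the peptidyl transferase centre, had 262 and 290 FPKM in shFAM49B and 159 and 148 FPKM in shCON. Its ratio was 1.80, beside 1.89 for RPL3.

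RPL15P3 (chr6:12514110-12514724), a copy of RPL15, had 191 and 205 FPKM in shFAM49B and 93.3 and 101 FPKM in shCON. Its ratio of 2.04 (log2 fold change 1.02, SE 0.07, adjusted p = 0.0015, limma) exceeded the 1.83 of RPL15, with 7.62 and 7.99 reads per 100 of RPL15 in shFAM49B and 6.85 and 7.18 in shCON. RPL10P16 (chr19:12643275-12643919), a copy of RPL10, a protein that joins the large subunit late in its assembly, had 177 and 184 FPKM in shFAM49B and 90.7 and 113 FPKM in shCON, a ratio of 1.77 beside 1.75 for RPL10. The second RPL10 copy, RPL10P9, had 51.7 and 56.2 FPKM in shFAM49B and 26.1 and 31.4 FPKM in shCON, a ratio of 1.88. RPL13P12 (chr17:17383377-17384012), a copy of RPL13, had 141 and 148 FPKM in shFAM49B and 64.5 and 75.4 FPKM in shCON, and its ratio of 2.06 stood beside 1.98 for RPL13. These 4 pseudogenes all had groups that did not overlap and were called higher under every alternative tried.

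RPL7P1 (chr5:150094302-150095048), a copy of RPL7, had the lowest ratio of the 10 members of the highest level, with 164 and 165 FPKM in shFAM49B against 120 and 117 FPKM in shCON, a ratio of 1.39. RPL7 had a ratio of 1.51, and there were 10.1 and 10.3 reads of RPL7P1 per 100 of RPL7 in shFAM49B, against 11.2 and 11.1 in shCON. Under quantile normalization RPL7P1 was level between groups (log2 fold change 0.01, adjusted p = 0.930, limma). The other copies of RPL7 spanned both directions. RPL7P9 had a ratio of 1.44 and was called higher, RPL7P23 had a ratio of 1.22 and did not pass the test, and RPL7P50 was lower at a ratio of 0.577.

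**Figure D2:**
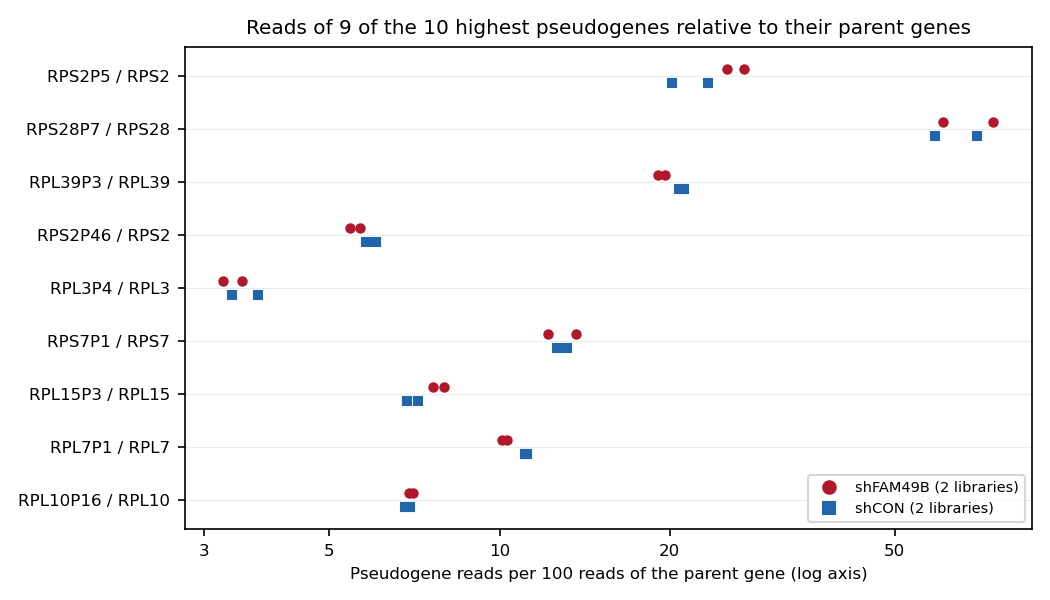
Reads per 100 reads of the parent gene (log axis) for 9 of the 10 pseudogenes of the highest mean level, in the 2 shFAM49B libraries (circles) and the 2 shCON libraries (squares). RPS2P5 and RPL15P3 lie higher in shFAM49B (RPS2P5 at 27.1 and 25.3 against 23.3 and 20.2 in shCON), RPL39P3, RPS2P46 and RPL7P1 lie lower, and RPS28P7, RPL3P4, RPS7P1 and RPL10P16 overlap between groups.

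The pseudogenes with the largest folds among those called higher had very few reads. RPL23AP97 and RPS29P16 reached the 1 FPKM threshold through the shFAM49B libraries alone, so a difference in this direction was part of their selection and their calls are a description. RPL23AP97 (chr13:114346167-114346637), a copy of RPL23A, whose protein binds the signal recognition particle at the tunnel exit, had 19 and 9 reads in shFAM49B and 0 and 2 in shCON. Its levels were 2.63 and 1.28 FPKM in shFAM49B and 0 and 0.230 FPKM in shCON, a ratio of 17.0 with a 95% counting interval of 4.29 to 147, beside 1.94 for RPL23A. RPS29P16 (chr7:103348601-103348771) had 7 and 3 reads in shFAM49B and 0 and 1 in shCON, a ratio of 12.1 with a counting interval of 1.73 to 527. Both calls (adjusted p = 0.015 and 0.023, limma) were lost without shFAM49B replicate 1 (adjusted p = 0.056 and 0.082) and without shCON replicate 1 (adjusted p = 0.060 and 0.090). RPL23AP42 (chr3:161429127-161429597), another copy of RPL23A, rested on 69 and 63 reads in shFAM49B and 33 and 39 in shCON, at a ratio of 2.14 and an adjusted p of 0.0018 (limma). The remaining copies of RPL23A, RPL23AP64 and RPL23AP20, did not pass the test, at ratios of 1.19 and 0.554. Counting intervals are exact binomial intervals of the summed reads and cover counting error only.

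RPL12P14 had the lowest ratio of the 4 pseudogenes called lower. It reached the 1 FPKM threshold through the shCON libraries alone, so a difference in this direction was part of its selection and its call is a description. It had 0.532 and 1.23 FPKM in shFAM49B, from 4 and 9 reads, against 5.57 and 6.18 FPKM in shCON, from 46 and 56 reads. The ratio was 0.150, with a counting interval of 0.0771 to 0.268 (log2 fold change -1.89, SE 0.19, adjusted p = 0.0026, limma). Its parent RPL12, which lies at the base of the ribosomal stalk, moved the other way, with 531 and 573 FPKM in shFAM49B against 278 and 310 FPKM in shCON, a ratio of 1.88. RPL12P4, the other member copied from RPL12, was higher at a ratio of 1.63 (adjusted p = 0.0048, limma). Of the 50-base stretches of RPL12P14, 13.8% occurred letter for letter in transcripts of RPL12 and 76.4% occurred in no other annotated transcript.

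RPL29P11 had 7.95 and 3.80 FPKM in shFAM49B, from 60 and 28 reads, against 13.0 and 16.0 FPKM in shCON, from 108 and 146 reads. Its ratio was 0.405, with a counting interval of 0.314 to 0.517 (log2 fold change -1.24, adjusted p = 0.024, limma), while RPL29 had a ratio of 1.95. The call was lost without shCON replicate 1 (adjusted p = 0.066) and without shCON replicate 2 (adjusted p = 0.102).

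RPL7P50 (chr19:6593329-6594055) had 3.59 and 4.50 FPKM in shFAM49B and 7.99 and 6.03 FPKM in shCON, a ratio of 0.577 with a counting interval of 0.443 to 0.749 (adjusted p = 0.021, limma). It overlaps CD70, a TNF family ligand gene on the opposite strand, which stood at 8.17 and 7.94 FPKM in shFAM49B and 8.16 and 7.77 FPKM in shCON and did not pass the test. The RPL7P50 call was lost without either shFAM49B library (adjusted p = 0.0922 without replicate 1 and 0.0501 without replicate 2) and without shCON replicate 1 (adjusted p = 0.086). RPL39P36 (chr19:53413190-53413345), which like RPL12P14 reached the threshold through shCON alone, on the strand of the zinc finger gene ZNF765 within its span, had 1 read in each shFAM49B library and 3 and 7 reads in the shCON libraries. Its call (adjusted p = 0.036, limma) was lost without any library other than shCON replicate 1, and the counting interval of its ratio, 0.0253 to 1.11, includes equal levels. The silent olfactory receptor genes, 381 in the table, had 56 and 29 reads in shFAM49B and 116 and 127 in shCON. Over their summed length this came to 0.00406 and 0.00216 FPKM in shFAM49B and 0.00765 and 0.00764 FPKM in shCON. Reads in genes taken to be silent were thus also fewer in shFAM49B, and their part in these 4 falls was not tested.

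**Figure D3:**
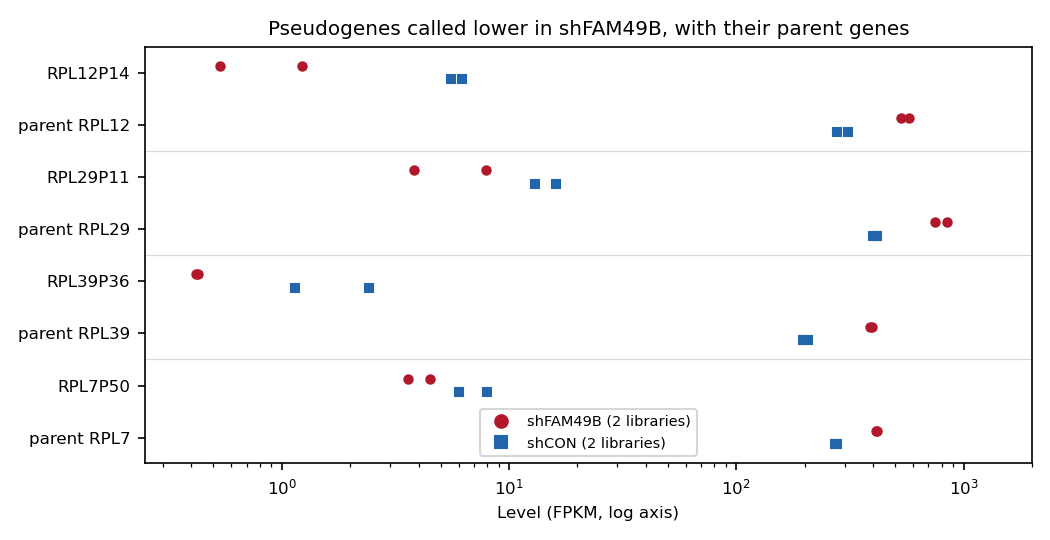
Level in FPKM (log axis) of the 4 pseudogenes called lower in shFAM49B and of their parent genes, in the 2 shFAM49B libraries (circles) and the 2 shCON libraries (squares). Each pseudogene lies lower in shFAM49B while its parent lies higher, as for RPL12P14 at 0.532 and 1.23 FPKM against 5.57 and 6.18 FPKM, and RPL12 at 531 and 573 FPKM against 278 and 310 FPKM.

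Each pseudogene's ratio of mean FPKM was set against its parent's. The median difference, as log2 ratio of the pseudogene minus log2 ratio of the parent, was -0.11 over the 73 members, -0.07 over the 47 with at least 100 reads and -0.34 over the 26 with fewer. The parent's ratio lay inside the pseudogene's 95% counting interval for 50 members, above it for 15 and below it for 8. Among the pseudogenes with at least 100 reads, the 5 farthest below their parents were RPL12P14 (difference -3.65), RPL29P11 (-2.27), RPL7P50 (-1.39), RPL24P4 (-0.50) and RPL21P75 (-0.48). The 5 farthest above were RPL22P1 (0.32), RPS7P10 (0.28), RPS2P5 (0.27), RPS2P55 (0.18) and RPL15P3 (0.15). Quantile normalization turned the median difference to 0.25, and the other alternatives that give a value kept it between -0.15 and -0.01.

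RPL24P4, a copy of RPL24, whose protein bridges the subunits, had 6.82 and 11.9 FPKM in shFAM49B and 6.90 and 7.96 FPKM in shCON, with groups that overlapped. It did not pass the test (adjusted p = 0.422, limma), and 1 library decided its direction, with a log2 fold change of -0.11 without shFAM49B replicate 2 and 0.62 without shFAM49B replicate 1. RPL21P75 had 10.8 and 9.96 FPKM in shFAM49B and 8.96 and 7.95 FPKM in shCON, and its call (log2 fold change 0.27, adjusted p = 0.048, limma) was lost under each of the 4 omissions of a library, without a filter, with voom and in the 4 other scalings. Expressed as TPM, its log2 fold change was 0.05 (adjusted p = 0.666, limma), and with recovered reads as the base it was 0.07 (adjusted p = 0.547, limma). RPL22P1 (chr3:169483671-169484080), a copy of RPL22 within the transcription factor gene MECOM on the same strand, had 25.3 and 24.1 FPKM in shFAM49B and 13.3 and 14.5 FPKM in shCON. Its ratio of 1.78 was above that of RPL22 at 1.42. MECOM was lower in shFAM49B, at 3.00 and 2.53 FPKM against 4.14 and 3.53 FPKM in shCON (adjusted p = 0.049, limma).

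Genes that overlap a pseudogene gave no common direction. Of the 73 pseudogenes, 39 overlapped another gene of the table and 25 overlapped a tested gene, 9 of these on its strand. The 26 overlapped tested genes held 2 called higher, 2 called lower and 22 not past the test, where 26.4% of all tested genes were called higher and 15.8% lower. Of the 14 pseudogenes called higher that overlap a tested gene, 2 had that gene higher, 2 lower and 10 not past the test. The 2 higher were BAIAP2L1, on the strand of RPS3AP26, and DTL, on the opposite strand to RPL21P28. BAIAP2L1 stood at 17.9 and 18.3 FPKM in shFAM49B and 13.7 and 12.8 FPKM in shCON (adjusted p = 0.0058, limma). DTL stood at 71.9 and 71.1 FPKM in shFAM49B and 52.3 and 52.9 FPKM in shCON (adjusted p = 0.0035, limma). The part of host reads was not tested. The labels do not say whether the reads keep strand, so reads of a pseudogene and of a gene on its other strand cannot be told apart. RPL18AP3, called higher, lies on the strand of TXNRD1, the thioredoxin reductase gene, which was lower at 22.1 and 23.2 FPKM in shFAM49B against 29.3 and 29.2 FPKM in shCON (adjusted p = 0.0075, limma). TAOK3, which RPS2P5 overlaps on the opposite strand, stood at 1.96 and 1.92 FPKM in shFAM49B and 1.92 and 1.97 FPKM in shCON. PSMC2, the host of RPS29P16 on its strand, stood at 28.6 and 29.7 FPKM in shFAM49B and 27.0 and 27.6 FPKM in shCON and did not pass the test. Among the 34 pseudogenes that overlap no other gene, 18 were higher, 1 was lower and 15 did not pass, beside 23 higher, 3 lower and 13 not past among the 39 that do.

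The members resembled their parents more than the 948 candidates below 1 FPKM did. Sequence was not itself used to choose them, but parent reads placed on a similar copy would raise its level. The choice on level can therefore favour similar copies, and the part of this was not tested. The median identity to the closest parent transcript was 97.7% among members (range 76.7% to 100%) and 88.0% below the threshold. A median of 39.8% of a member's 50-base stretches also occurred in transcripts of its parent, against 0% for the candidates below the threshold. No stretch was shared with the parent for 11 of the 73 members and for 647 of the 948 others. In 5 members every stretch was shared, namely RPS28P7, RPL39P3, RPL21P16, RPL41P1 and RPL41P5, and no candidate below the threshold was of this kind. A reading frame of the length coded by the closest parent transcript was open in 31 members (42.5%) and in 49 of the others (5.17%). Copies without a base aligned to the start of that transcript's coding part were counted as not open. These figures describe both lists, and no test was made of them because the members were chosen on level.

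**Figure D4:**
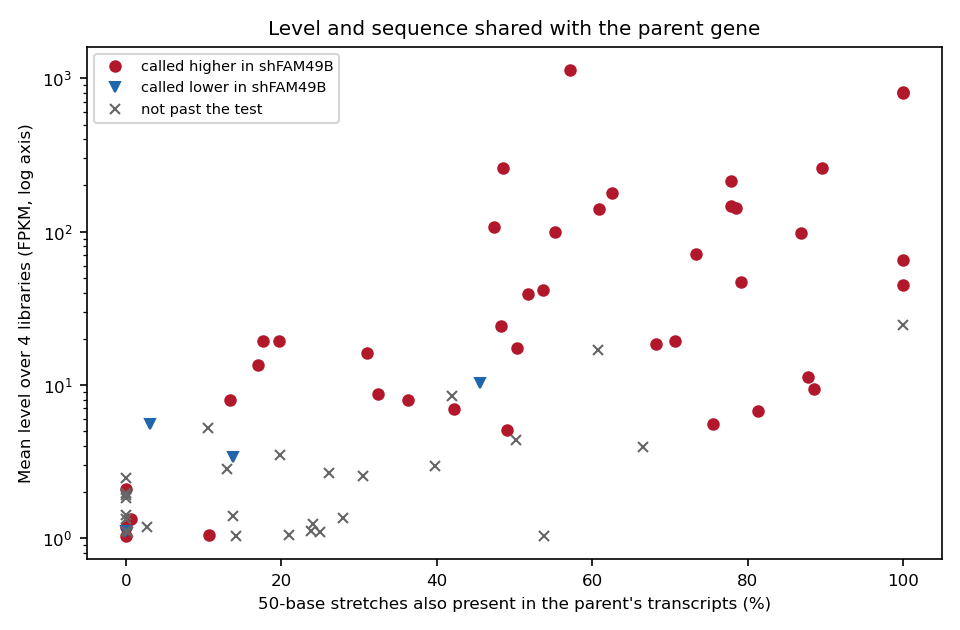
Mean level over the 4 libraries in FPKM (log axis) against the percent of 50-base stretches of each pseudogene that occur in transcripts of its parent, for the 41 pseudogenes called higher in shFAM49B (circles), the 4 called lower (triangles) and the 28 not past the test (crosses). The 4 lower pseudogenes all lie under 50% shared stretches, and the 11 pseudogenes with none lie at the low end of the level axis.

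Members with more of their sequence in the parent lay closer to the parent's ratio. Among the 29 members with at least 50% of their stretches in the parent, 24 were higher, 0 lower and 5 not past the test, with a median difference from the parent of -0.03. Among the 33 with some but under 50%, 14 were higher, 3 lower and 16 not past, with a median difference of -0.20. Among the 11 with none, 3 were higher, 1 lower and 7 not past, with a median difference of -0.70. The shares called higher in the 3 classes were 82.8%, 42.4% and 27.3%, beside 26.4% of all tested genes. The shares called lower were 0%, 9.09% and 9.09%, beside 15.8% of all tested genes. The last class also had the fewest reads, with a median of 33 reads over the 4 libraries against 1492 in the first and 161 in the second, and the part of read number in this order was not tested.

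Near-identical copies also spread around their parents. RPL21P75, which differs from RPL21 at 1 base over its length, differed from its parent's log2 ratio by -0.48. RPS28P7 and RPL39P3, identical to their parents' coding parts, differed by 0.08 and -0.12. RPS2P5, with 11 differing positions over 879 bases and 57.1% of stretches shared, differed by 0.27. Differences within 0.25 on the log2 scale were found for 43 of the 73 members, 34 of them among the 47 with at least 100 reads.

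Across genes, the log2 ratios of pseudogene and parent had a Spearman's rho of 0.51 and a Pearson's r of 0.12 over the 47 pseudogenes with at least 100 reads, which come from 29 parents. Over the 27 of these with at least 50% of stretches shared, from 19 parents, rho was 0.81 and r was 0.74. Over the 26 with fewer than 100 reads rho was -0.11 and r was -0.19. The points share libraries, scaling and, where the sequence is the same, possibly reads, and copies of 1 parent are not independent, so no p-value is given.

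**Figure D5:**
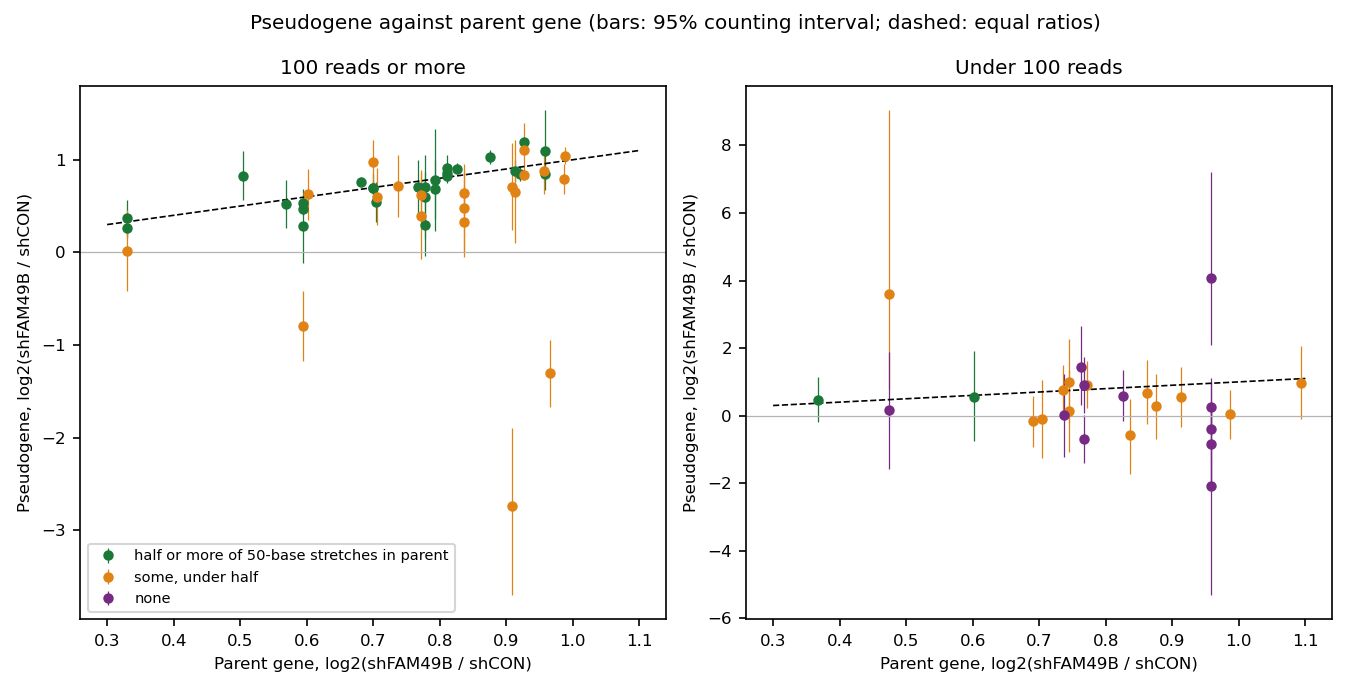
Log2 ratio of mean FPKM, shFAM49B over shCON, of each pseudogene (vertical axis, bars for the 95% counting interval) against that of its parent gene, for pseudogenes with at least 100 reads (left) and with fewer (right, wider axis), coloured by the share of 50-base stretches in the parent. The dashed line marks equal ratios, and RPL12P14, RPL29P11 and RPL7P50 differ from it by -3.65, -2.27 and -1.39.

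Within families the copies of 1 parent spread to different extents. The copies of RPS2 ranged in ratio from 1.78 to 2.29 around 1.90 for the parent, those of RPS7 from 1.61 to 1.97 around 1.62, and those of RPL13A from 1.46 to 1.84 below 1.88. The copies of RPL21 ranged from 1.23 to 1.64 and those of RPL24 from 1.26 to 1.56, all below their parents at 1.71 and 1.79. The copies of RPL5, whose protein carries the 5S ribosomal RNA, ranged from 1.31 to 1.88 around 1.71. Among the families with at least 3 members, the widest ranges were those of RPL23A, from 0.554 to 17.0, and of RPL39, from 0.237 to 1.79, and both ends of each but the upper end for RPL39 belong to pseudogenes with at most 40 reads in all. The 10 families with at least 3 members hold 32 of the 73 pseudogenes.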

How the data were processed

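The authors deposited 1 table of FPKM per gene and library, which per the file headers also holds gene positions, lengths and biotypes. Aligner, counting tool and treatment of reads with several positions: not given in the sources used here. Mouse builds (GRCm38, mm10) stand in the submitters' processing notes, but all 58735 identifiers are human and have the start and end of GENCODE release 29, so coordinates are on GRCh38. FPKM times length gave whole reads for 100% of values above 0 (tolerance 0.001 of a read). The implied denominators were 0.941 and 0.919 times the reads in shFAM49B and 1.08 and 1.10 times in shCON, so a factor between libraries was already applied.

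Groups come from the sample titles. Deposited values were tested with limma 3.58.1 (R 4.3.3) after the transform log2(FPKM + 1), 2-sided, with a mean-variance trend, over the 13775 genes whose mean reached 1 FPKM, and adjusted by Benjamini-Hochberg over all of them at a threshold of 0.05. The fit had 2 residual and 3.32 prior degrees of freedom and was checked on simulated data. Separate cultures are not stated for the libraries of a group, so the p-values reflect the spread among these 4 samples, and that spread may be technical. Ratios are of mean FPKM without a pseudocount, while log2 fold changes understate low genes.

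Pseudogenes were aligned to GENCODE release 29 transcripts of their parents with Biopython 1.88, and each 50-base stretch was looked up in all transcripts. Named were the 10 highest members, the 10 largest called changes in each direction, the 5 farthest from the parent each way among those with at least 100 reads, members of parents with 3 or more, the 2 on each side of the threshold, and their parents and hosts. Of these, 1 parent and 1 host are not reported here. Members and lists were chosen with earlier results of these data known. Alternatives were 4 other scalings, a pseudocount of 0.1, no filter, a filter of 5 FPKM, voom on recovered reads, the replicate block and omission of each library.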

Additional observations from a re-analysis of the deposited data

How the results depend on the processing

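The count of pseudogenes higher in shFAM49B was 41 as reported, 27 with values as TPM and 24 without a filter on low values, and 29 to 34 when each library was left out in turn. The count lower was 4, falling to 1 without a filter and 2 with a filter of 5 FPKM, and was 2 to 3 with a library left out. Their median log2 fold change of 0.51 was 0.40 as TPM, 0.34 relative to recovered reads, 0.41 after quantile normalization, 0.66 with a pseudocount of 0.1, 0.69 with a filter of 5 FPKM and 0.68 with voom. The summed-level ratio of 1.82 was 1.53 as TPM, 1.56 relative to recovered reads, 1.73 with median ratios over tested genes and 1.34 after quantile normalization. The median difference from the parent turned from -0.11 to 0.25 after quantile normalization. With a library left out, RPL24P4 ranged from -0.11 to 0.62 in log2 fold change. The cause of these moves was not tested, except that a filter of 5 FPKM leaves 42 pseudogenes to test.

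With the replicate block 42 pseudogenes were higher and 4 lower, and none of the 23 named calls was lost. Deviations of same-numbered libraries correlated at -0.01 across the tested genes, so no common deviation was seen at that scale. Whether same-numbered libraries shared a batch that touched fewer genes was not tested. Leaving out 1 library leaves a lone sample that is assumed to vary like the other group. Of the 23 named calls, 7 were lost without a filter and 3 to 6 with a library left out. At these depths 3 reads in 1 kb equal 0.162 to 0.200 FPKM, and 26 of the 73 pseudogenes rest on fewer than 100 reads, of which 20 did not pass the test.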
